A study of Mus musculus with 6 samples.

Results

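Genes that encode subunits of potassium, calcium and sodium channels were compared between mouse prostate stromal cells carrying S37A β-catenin and the same kind of cells carrying an empty lentiviral vector. The genes were taken by name: every symbol that begins with Kcn and a letter, with Cacna, Cacnb or Cacng, or that consists of Scn, a number and a or b. Of the 137 symbols that match, 4 name antisense or opposite-strand transcripts (Kcnd3os, Kcnmb4os1, Kcnmb4os2 and Kcnq1ot1) and were left out, which leaves 133 genes of the 24346 in the data, in 12 subunit families. The rule uses names and no level or difference. Scn2a1, an older symbol for a sodium channel pore subunit, falls outside the naming pattern and is not counted; it stood at 0.270 to 0.338 FPKM.

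The cells were primary stromal cells grown out of prostates of C57BL/6 mice aged 8 to 12 weeks. All 6 libraries share the culture on collagen with 1e-10 M dihydrotestosterone (DHT, an androgen), and a replating for 30 min after which cells that had not attached were thrown away, and cells were used within 3 weeks of dissociation. The 3 vector libraries came from cells with the lentiviral vector FU-CGW, and the 3 S37A libraries from cells with that vector carrying the S37A form of β-catenin, in which a serine that marks the protein for breakdown is replaced. Whether the 3 libraries of each group are separate cultures or animals is not given in the labels. The p-values below therefore measure only how far these samples spread, and that spread may be technical.

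Voltage-gated channels open when the membrane potential changes, and each is built around a pore-forming alpha subunit with auxiliary subunits that set its traffic to the membrane, its gating or its current size. Calcium entering through voltage-gated channels triggers contraction in smooth muscle, and potassium leaving the cell through calcium-activated, inward-rectifier and tandem-pore channels pulls the membrane potential back. In the prostate the stroma holds smooth muscle cells and fibroblasts, and the contractile tone of the gland depends on calcium entry into the smooth muscle.

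Levels are FPKM (fragments per kilobase of transcript model, scaled to a library's mapped fragments), summed over the models of a gene. FPKM is given per length, which allows a rough comparison between genes, but it depends on the transcript models on which a gene was counted. The confidence intervals beside the deposited values correspond to roughly 47.2, 49.5 and 44.9 M fragments for vector replicates 1 to 3 and 45.5, 39.5 and 42.6 M for S37A replicates 1 to 3. Ctnnb1, the gene of β-catenin, checks the labels: it stood at 116, 99.1 and 116 FPKM in vector and 132, 144 and 146 FPKM in S37A, with reads of the introduced and the cells' own gene not separated. The limma test called Ctnnb1 higher (adjusted p = 0.0158), but not without S37A replicate 2 (adjusted p = 0.0534) or S37A replicate 3 (adjusted p = 0.0585). Markers of smooth muscle stood at 7011 to 7441 FPKM in sum in vector and 8276 to 8641 FPKM in S37A, with 8 of 9 tested called higher, and fibroblast markers at 5105 to 5638 and 5872 to 6238 FPKM, with 1 of 11 higher and 2 lower. Macrophage markers stood at 23.8 to 30.1 FPKM in vector and 60.8 to 69.0 FPKM in S37A, with 8 of 10 tested called higher. Endothelial markers stood at 107 to 122 FPKM in vector and 103 to 106 FPKM in S37A, with 0 of 8 tested called. Schwann and epithelial markers also had 0 called, of 5 and 7 tested. Neuron markers stood at 126 to 141 FPKM in vector and 128 to 140 FPKM in S37A, mostly from Uchl1 (106 to 117 FPKM over the 6 libraries). Of the 12 neuron markers, 4 were tested, 0 were called and 5 had a mean under 0.1 FPKM. Of 8 skeletal muscle markers 7 had a mean under 0.1 FPKM, with Myod1 at 0 in every library. The other, Acta1, stood at 76.7 to 99.2 FPKM in vector and 127 to 137 FPKM in S37A and was called higher (limma adjusted p = 0.00715). Fewer cells of a type and less RNA per cell cannot be told apart in such bulk samples, and what these cell types add to the channel genes was not tested.

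Most channel genes were scarcely detected in these cells. Of the 133, 26 reached the 0.5 FPKM (mean of all 6 libraries) set as the minimum for testing, 99 were above 0 but below that level, and 8 were at 0 in every library. The 8 at 0 were Kcnq1, Kcnh3, Kcne1, Kcnc4, Kcnk9, Kcnk15, Kcnk16 and Cacng3. A mean of 1 FPKM was reached by 17 genes, of 5 FPKM by 6 and of 10 FPKM by 5.

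The genes above 10 FPKM all encode auxiliary subunits. Among them are Cacnb3 (a calcium channel beta subunit), Kcnab1 (a cytoplasmic beta subunit of voltage-gated potassium channels), Kcnmb1 (the smooth muscle beta subunit of the BK channel) and Cacng7 (a gene of the calcium channel gamma family). The 37 auxiliary genes summed to 103, 101 and 99.6 FPKM in vector and 103, 101 and 99.8 FPKM in S37A, or 78.9% to 81.0% of the FPKM of all 133. No pore-forming gene of the 96 reached 10 FPKM, and the highest mean among them was the 4.92 FPKM of Kcnj15. The contrast was wide within the BK channel. Kcnmb1 stood at 13.1 to 15.3 FPKM over the 6 libraries, while Kcnma1, the only gene for the BK pore, stood at 0.129 to 0.228 FPKM and lay under the level needed for testing. The sum over all 133 was 125 to 130 FPKM in vector and 126 to 127 FPKM in S37A, so the total overlapped between the groups.

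**Figure D1:**
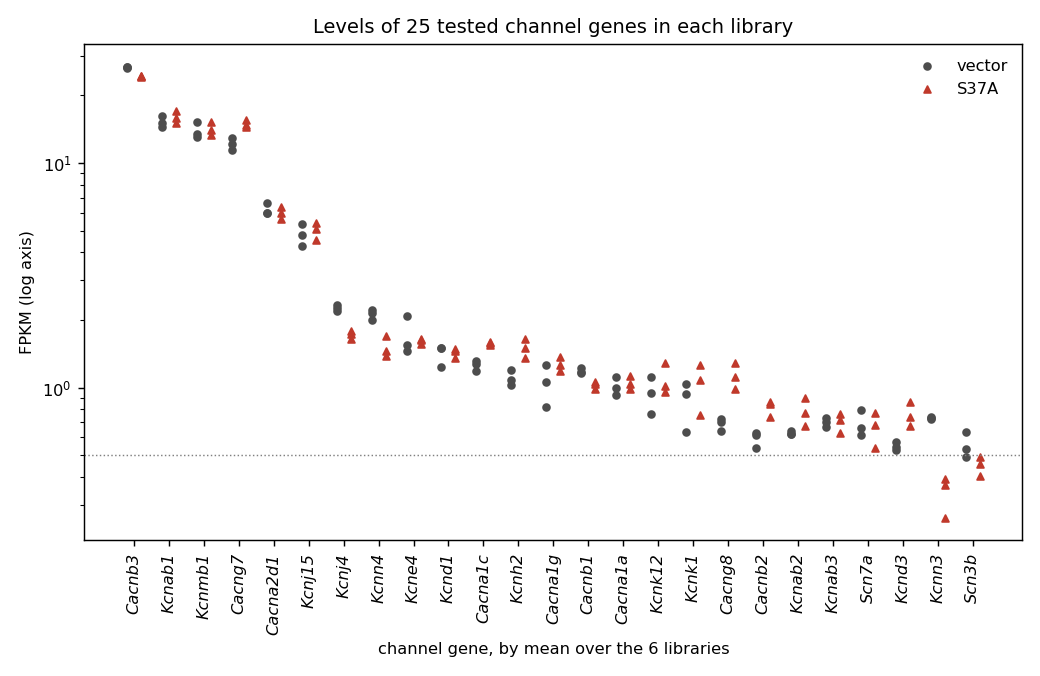
Level of 25 tested channel genes in each library, in FPKM on a log axis, ordered by mean, with circles for the 3 vector libraries and triangles for the 3 S37A libraries. The dotted line marks the 0.5 FPKM used as the minimum for testing, and the means of Cacnb3, Kcnab1, Kcnmb1 and Cacng7 lie above 10 FPKM.

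Of the 26 tested genes, 9 passed limma at an adjusted p under 0.05: 5 were higher in S37A (Cacng7, Cacng8, Cacna1c, Kcnh2 and Cacnb2) and 4 lower (Cacnb3, Kcnj4, Kcnn4 and Kcnn3). In all 12022 genes tested, 26.0% passed, 6.06% higher and 19.9% lower. The shares of the channel genes were 34.6%, 19.2% and 15.4%. The groups did not overlap for 7 higher and 5 lower channel genes, 12 of 26 in all, against 11.3%, 36.5% and 47.8% of all tested genes. Under median-ratio scaling and under quantile normalization 6 channel genes were higher and 3 lower, and of all genes 1265 and 945 or 1094 and 957. The median log2 difference of the 26 was 0.03, against -0.07 for all genes tested, and none of the 9 reached 2-fold on the log2(FPKM + 1) scale. Kcnn3 and Scn3b reached the level for testing only through the vector libraries, and a gene that passes through 1 group has to differ to some extent; without Kcnn3, 3 called genes were lower.

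**Figure D2:**
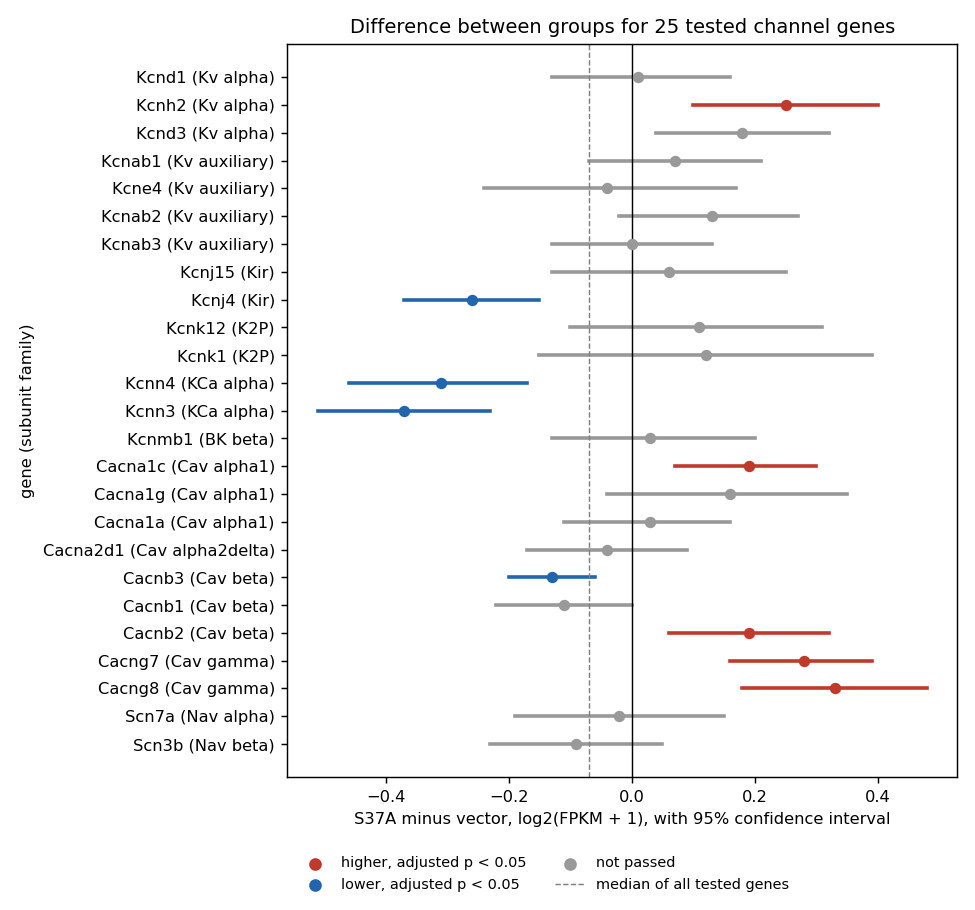
Log2 difference (S37A minus vector, on log2(FPKM + 1)) of 25 tested channel genes with its 95% confidence interval from limma; colour separates genes that passed at an adjusted p under 0.05 (higher or lower) from those that did not (grey), and the dashed line is the median of all tested genes, -0.07. The 5 genes called higher lie between 0.19 and 0.33 and the 4 called lower between -0.37 and -0.13.

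Cacng7 and Cacng8, of the gamma family of calcium channel genes, gave the clearest rise among the channel genes tested. They alone of the 8 genes of that family were above the level for testing. Their proteins are also known as auxiliary subunits of AMPA-type glutamate receptors in neurons. Cacng7 stood at 12.1, 11.4 and 12.9 FPKM in vector and 14.8, 15.5 and 14.5 FPKM in S37A. Every S37A library was above every vector library, and the ratio of means was 1.23 (log2 difference 0.28, SE 0.05, limma adjusted p = 0.0125). Cacng8 stood at 0.704, 0.639 and 0.723 FPKM in vector and at 1.11, 1.28 and 0.984 FPKM in S37A. Those groups did not overlap either, with a ratio of means of 1.64 (log2 difference 0.33, SE 0.07, limma adjusted p = 0.0155). In fragments, the values of Cacng8 rest on about 38 to 60 a library and those of Cacng7 on about 373 to 440. Summed, the gamma family stood at 12.2 to 13.7 FPKM in vector and 15.6 to 16.8 FPKM in S37A, most of it Cacng7.

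Both gamma genes lie next to each other on the plus strand of chromosome 7 (mm10, GENCODE M21), Cacng7 at 3332955 to 3368221 and Cacng8 at 3390683 to 3415648, 22.5 kb apart. Cacng6, another gamma gene on the same strand 8.5 kb beyond Cacng8, was at 0 in all libraries but vector replicate 2 (0.0328 FPKM). The library kit does not mark the strand, and Cacng7 was counted on 1 model of 828 bases that begins 3.63 kb inside the annotated gene. Cacng8 was likewise counted on 1 model, of 1380 bases, that begins 3.43 kb inside its annotated gene.

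Windows before the starts of 4 genes are printed here under the label promoter. They are those of the neighbours Cacng7 and Cacng8, which rose together, and of Kcnj4 and Kcnn3. Kcnj4 fell and, like Cacng7 and Cacng8, kept its call in every alternative that tested it. Kcnn3 had the widest ratio. Each is the 250 bases before the RefSeq start (GRCm38.p6), 5′ to 3′ on the strand of the gene: chr7:3332575-3332824 (plus), chr7:3393792-3394041 (plus), chr15:79505242-79505491 (minus) and chr3:89519914-89520163 (plus). The window of Cacng8 lies inside the longer GENCODE gene, which starts at 3390683, and outside its exons. It is thus intronic in that gene, and it is not shown to be a promoter. The label promoter means here only that the window lies before the RefSeq start. The bases before the GENCODE start of Cacng8 were not searched.
Cacng7 promoter: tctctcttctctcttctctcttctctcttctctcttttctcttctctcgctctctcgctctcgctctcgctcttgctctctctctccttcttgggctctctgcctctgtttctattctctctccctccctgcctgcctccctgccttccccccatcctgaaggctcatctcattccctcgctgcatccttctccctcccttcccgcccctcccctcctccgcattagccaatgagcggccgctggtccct
Cacng8 promoter: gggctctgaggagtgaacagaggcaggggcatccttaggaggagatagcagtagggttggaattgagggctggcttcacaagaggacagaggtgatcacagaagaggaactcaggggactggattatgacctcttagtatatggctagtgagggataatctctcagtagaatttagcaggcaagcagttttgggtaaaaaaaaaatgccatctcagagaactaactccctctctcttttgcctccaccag
Kcnj4 promoter: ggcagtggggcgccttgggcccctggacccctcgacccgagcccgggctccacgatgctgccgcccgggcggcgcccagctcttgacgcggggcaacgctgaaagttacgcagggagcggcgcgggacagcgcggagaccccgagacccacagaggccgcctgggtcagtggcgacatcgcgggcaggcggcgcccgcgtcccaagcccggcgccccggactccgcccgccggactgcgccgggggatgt
Kcnn3 promoter: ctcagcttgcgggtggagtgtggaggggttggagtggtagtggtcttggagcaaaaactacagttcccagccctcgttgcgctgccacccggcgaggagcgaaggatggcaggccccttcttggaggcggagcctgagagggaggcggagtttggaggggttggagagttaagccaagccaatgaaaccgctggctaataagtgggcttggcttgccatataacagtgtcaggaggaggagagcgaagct

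Since β-catenin acts through TCF and LEF factors, these letters were searched on both strands for the TCF/LEF form CTTTGNN in which each N is A or T; overlapping matches were counted separately. A match would be in capitals, and the 4 windows printed hold none. The 9 called genes have 13 such windows, the intronic one of Cacng8 among them. Of the 13, 3 (23.1%) hold a match, against 4874 of 32851 windows of all genes (14.8%). The 3 belong to a downstream start of Cacnb2, an upstream start of Cacna1c, whose models were at 0 in every library, and the second start of Cacnb3. A match is a run of letters and not a shown site, and windows without one say nothing about binding elsewhere.

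Among pore-forming calcium channel genes, Cacna1c rose. It encodes the pore of the L-type channel that is the main route of calcium into smooth muscle and heart cells, and lies on chromosome 6 from 118587240 to 119196418 (minus strand). Its level was 1.27, 1.19 and 1.31 FPKM in vector and 1.54, 1.59 and 1.58 FPKM in S37A, with no overlap. The ratio of means was 1.25 (log2 difference 0.19, SE 0.05, limma adjusted p = 0.0323). The call was lost when any 1 library was left out (adjusted p = 0.0508 to 0.0958). Its level is a sum over 11 models, of which 5 were above 0 and 1 was above 0 in every library.

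The other tested pore genes for calcium were the T-type Cacna1g and the P/Q-type Cacna1a. Cacna1g stood at 1.26, 0.819 and 1.06 FPKM in vector and 1.19, 1.37 and 1.26 FPKM in S37A. Those values overlap, and the test was not passed (limma adjusted p = 0.201). Cacna1a stood between 0.926 and 1.12 FPKM in the 6 libraries (limma adjusted p = 0.729). The other 7 genes of this family were below the level for testing.

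The beta subunits of calcium channels, cytoplasmic proteins that bring the pore subunit to the membrane, changed in opposite directions. Cacnb3, the most abundant channel gene of all, stood at 26.8, 26.9 and 26.5 FPKM in vector and 24.1, 24.5 and 24.3 FPKM in S37A. Its libraries lay close together within each group and did not overlap, so that a fall of 1.10-fold passed the test (log2 difference -0.13, SE 0.03, limma adjusted p = 0.0224). This small fall depended on the scale: it lost its call with median-ratio scaling (adjusted p = 0.19), with quantile normalization (0.104) or with the 100 most abundant genes removed (0.0568), nor when any 1 library but vector replicate 1 was left out (0.0521 to 0.0796). Of the 3 models of Cacnb3, on chromosome 15 from 98630840 to 98644529, 1 carried 20.0 to 22.9 FPKM, another 3.79 to 5.92 FPKM and the other was at 0.

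Cacnb2, the main beta subunit in heart muscle, rose from a far lower level: 0.629, 0.539 and 0.612 FPKM in vector and 0.842, 0.740 and 0.865 FPKM in S37A. The groups did not overlap and the ratio of means was 1.37 (log2 difference 0.19, SE 0.06, limma adjusted p = 0.0462). Without any 1 library the call was lost (adjusted p = 0.06 to 0.136), as with a pseudocount of 0.1 (adjusted p = 0.0534). Cacnb1, the beta subunit of skeletal muscle, stood at 1.22, 1.17 and 1.16 FPKM in vector and 1.04, 1.06 and 0.981 FPKM in S37A; these groups did not overlap, but the test was not passed (limma adjusted p = 0.128). Cacna2d1, an alpha2delta subunit and a target of gabapentin, stood at 6.20 ± 0.360 FPKM in vector and 5.99 ± 0.347 FPKM in S37A (SD, n = 3) and did not pass (limma adjusted p = 0.591). The sign of its difference of -0.04 turned under median-ratio scaling and quantile normalization.

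Of 8 calcium-activated potassium channel pore genes 2 were tested, Kcnn3 and Kcnn4, and both fell. Kcnn3 reached the level for testing only through the vector libraries, so its fall does not speak for the family. The pore genes Kcnn3 and Kcnn4 encode the small- and intermediate-conductance channels that open when calcium binds to calmodulin on the channel. Kcnn3 stood at 0.726, 0.730 and 0.739 FPKM in vector and 0.263, 0.391 and 0.366 FPKM in S37A. The S37A libraries were all below 0.4 FPKM and the vector libraries all above 0.7 FPKM, a 2.15-fold fall of the mean (log2 difference -0.37, SE 0.06, limma adjusted p = 0.00919). That is the widest ratio among the called channel genes, and the log2(FPKM + 1) scale understates it because the level is low. Since only its vector libraries reach 0.5 FPKM, Kcnn3 had no test when vector replicate 1, 2 or 3 was left out. About 96 to 285 fragments a library stand behind the values of Kcnn3, which lies on chromosome 3 from 89520164 to 89675132 and was counted on 1 model.

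Kcnn4, on chromosome 7 from 24370263 to 24386690, stood at 2.14, 1.99 and 2.21 FPKM in vector and 1.38, 1.69 and 1.45 FPKM in S37A. The groups did not overlap, with a 1.40-fold fall (log2 difference -0.31, SE 0.06, limma adjusted p = 0.0158). Without S37A replicate 3 the call was lost (adjusted p = 0.0589). Kcnn4 is also a known channel of macrophages, whose markers stood at 23.8 to 30.1 FPKM in vector and 60.8 to 69.0 FPKM in S37A in sum. Endothelial markers stood at 107 to 122 FPKM in vector and 103 to 106 FPKM in S37A in sum, with 0 of 8 tested called. The part of these or other cell types in the level of Kcnn4 was not tested.

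Inward rectifiers pass potassium more easily into the cell than out and hold the resting potential. Kcnj4, on chromosome 15 from 79483714 to 79505241 (minus strand), stood at 2.34, 2.27 and 2.20 FPKM in vector and 1.65, 1.74 and 1.78 FPKM in S37A. The lowest vector library lay above the highest S37A library, and the mean fell 1.32-fold (log2 difference -0.26, SE 0.05, limma adjusted p = 0.012). About 144 to 228 fragments a library stand behind it. Kcnj15, the most abundant inward rectifier, did not pass: it stood at 4.81 ± 0.533 FPKM in vector and 5.03 ± 0.435 FPKM in S37A (SD, n = 3, limma adjusted p = 0.626). None of its 12 models was above 0 in every library, so its level is known only as a sum. The other 13 inward rectifiers were below the level for testing.

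**Figure D3:**
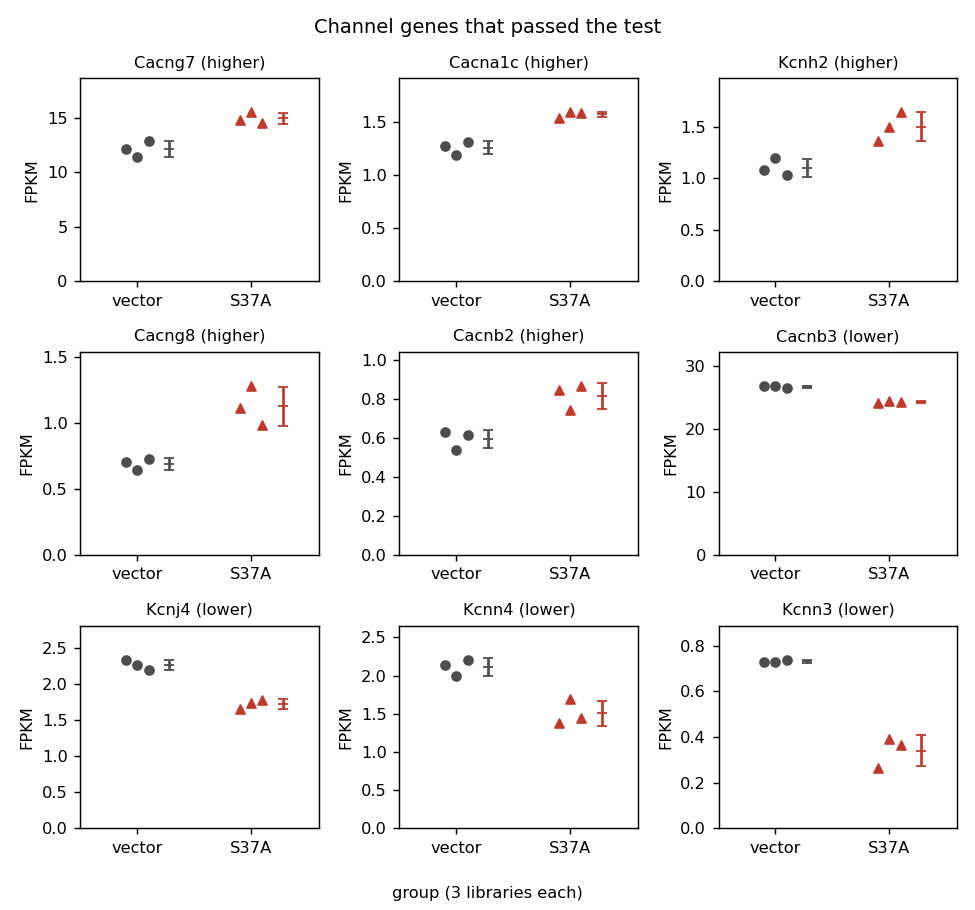
FPKM of the 9 called channel genes by library, 1 panel a gene with a linear axis from 0, with points for the 3 libraries of each group and, beside them, a dash for the mean with its SD. In each panel the vector and S37A libraries do not overlap; Kcnn3 shows the widest ratio of means, 2.15-fold, and Cacnb3 the narrowest, 1.10-fold.

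Voltage-gated potassium channels are the largest family, with 40 pore genes, of which 3 were tested and 1 rose. Kcnh2, the gene of the hERG channel that repolarizes heart muscle, lies on chromosome 5 from 24319589 to 24351604 (minus strand). It stood at 1.08, 1.20 and 1.03 FPKM in vector and 1.36, 1.50 and 1.64 FPKM in S37A. Those groups did not overlap, and the ratio of means was 1.36 (log2 difference 0.25, SE 0.06, limma adjusted p = 0.0284). When vector replicate 1 or 3 was left out, or S37A replicate 2 or 3, the call was lost (adjusted p = 0.0547 to 0.0925). Kcnd3 and Kcnd1 encode pores of rapidly inactivating A-type currents. Kcnd3 stood at 0.545, 0.528 and 0.573 FPKM in vector and 0.738, 0.675 and 0.865 FPKM in S37A. Its groups did not overlap, but it did not pass (log2 difference 0.18, limma adjusted p = 0.0585); it did under median-ratio scaling (adjusted p = 0.0474) and quantile normalization (adjusted p = 0.0406). Kcnd1 stood at 1.41 ± 0.158 FPKM in vector and 1.43 ± 0.0739 FPKM in S37A (limma adjusted p = 0.881).

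Of the 17 auxiliary subunit genes of potassium channels 5 were tested, none with an adjusted or unadjusted p under 0.05 in limma, and Kcnab1 and Kcnmb1 were the abundant ones. Kcnab1 stood at 15.2 ± 0.965 FPKM in vector and 16.0 ± 0.939 FPKM in S37A (SD, n = 3), with overlap (limma adjusted p = 0.397). Kcnmb1 stood at 13.4, 15.3 and 13.1 FPKM in vector and 15.3, 14.1 and 13.3 FPKM in S37A. Its log2 difference of 0.03 had a 95% interval from -0.13 to 0.20 (limma adjusted p = 0.746), within which neither direction can be read. The other auxiliary genes tested were Kcnab2, Kcnab3 and Kcne4, of which Kcnab2 had no overlap (0.619 to 0.639 FPKM in vector, 0.672 to 0.896 FPKM in S37A; limma adjusted p = 0.157). Kcne4, which dampens several voltage-gated potassium channels, stood between 1.46 and 2.08 FPKM over the 6 libraries (limma adjusted p = 0.768). Kcnk1 and Kcnk12, the tested genes of the tandem-pore leak channels, stood at 0.632 to 1.26 FPKM and 0.765 to 1.29 FPKM and overlapped between the groups (limma adjusted p = 0.459 and 0.381).

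The sodium channel genes described here did not pass the test. The only pore gene tested was Scn7a, an atypical member that senses extracellular sodium, at 0.690 ± 0.0927 FPKM in vector and 0.664 ± 0.117 FPKM in S37A (SD, n = 3, limma adjusted p = 0.821). Scn3b, a beta subunit, stood at 0.404 to 0.631 FPKM (limma adjusted p = 0.265). An exact permutation test of a single gene cannot go below p = 0.1 with 3 libraries against 3, so the calls rest on the spread that limma shares among genes.

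Channel genes below the level for testing pointed in both directions. Of the 99 genes above 0 and under 0.5 FPKM, 54 (54.5%) had a lower mean in S37A and 45 a higher one. Of all 7584 such genes 67.6% had a lower mean. Among the 99 channel genes the groups did not overlap for 19 that were lower (19.2%) and 8 that were higher (8.08%), against 13.1% and 4.19% of all 7584. By locus length, 23 of 33 channel genes on loci of at least 100 kb had a lower mean, with 13 (39.4%) not overlapping, and 31 of 66 on shorter loci, with 6 (9.09%) not overlapping. The same measures over all genes under 0.5 FPKM were 76.5% lower and 29.6% not overlapping on long loci, and 66.5% and 11.1% on shorter ones. The number of such genes above 0 was 5624 to 5958 in the vector libraries and 4744 to 4891 in the S37A libraries, so fewer weakly expressed genes of any kind were seen in S37A. What this difference in detection adds to the lower channel genes was not tested.

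When all genes were tested with no minimum level, 6 of these 99 genes were called lower, against 3.11% of all genes under 0.5 FPKM. They were Kcnt2, Kcnip4, Kcnq5, Scn9a, Kcnh5 and Kcnj16. Kcnt2, a sodium-activated potassium channel, stood at 0.501, 0.737 and 0.439 FPKM in vector and 0.287, 0.175 and 0.283 FPKM in S37A, on about 27 to 136 fragments a library. Kcnip4, a calcium-binding partner of A-type channels, stood at 0.241 to 0.369 FPKM in vector and 0.118 to 0.194 FPKM in S37A. Kcnq5, a pore of the M-type current, stood at 0.213 to 0.297 and 0.101 to 0.142 FPKM. For the sodium channel gene Scn9a the values were 0.0893 to 0.136 and 0.0380 to 0.0519 FPKM. The other genes lay near 0 in both groups. Kcnh5 stood at 0.0427 to 0.0678 FPKM in vector and 0 to 0.0169 FPKM in S37A. Kcnj16 stood at 0.0383 to 0.0483 FPKM in vector and was listed at 0 in every S37A library. Among genes that stood higher without overlap, Kcnk5 went from 0.333 to 0.434 FPKM in vector to 0.445 to 0.522 FPKM in S37A, and the T-type pore gene Cacna1h from 0.169 to 0.194 FPKM to 0.228 to 0.245 FPKM. None of the 99 was called higher by limma at an adjusted p under 0.05, against 1.07% of all genes under 0.5 FPKM. At an unadjusted p under 0.05 in limma, 5 were higher and 11 lower. There is no share over all genes to set beside them, so these counts give no result particular to channel genes.

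**Figure D4:**
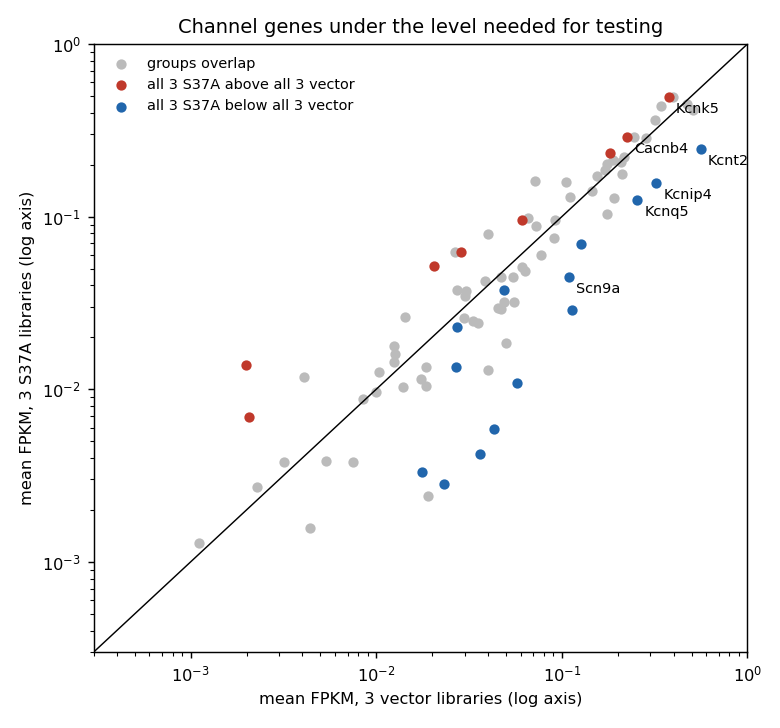
Mean FPKM in S37A against mean FPKM in vector, on log axes, for the 85 channel genes under 0.5 FPKM that were above 0 in both groups; colour marks genes whose groups do not overlap and the diagonal marks equal means. Of all 99 such channel genes, 54 (54.5%) have the lower mean in S37A, against 67.6% of all 7584 genes above 0 and under 0.5 FPKM. The 14 genes above 0 in 1 group only are not drawn.

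Related genes outside the name pattern were taken from 3 lists: partners that regulate channels, calcium handling, and pumps with other cation or chloride channels. Of 105 listed, 65 were tested, 9 were higher and 6 lower, or 15 in all (23.1%), against 6.06%, 19.9% and 26.0% of all genes tested. Without S37A replicate 3 limma called 5 higher and 0 lower, with 11 and 8 at an unadjusted p under 0.05. Calls over all genes fell as well, from 729 higher and 2393 lower of 12022 to 298 and 606 of 12012. Scaling moved the split to 16 higher and 2 lower under median-ratio scaling (1265 and 945 of all genes) and 14 and 2 under quantile normalization (1094 and 957). The 3 lists had median log2 differences of 0.06, 0.05 and 0.01.

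Among 17 tested partners 3 rose and 3 fell, where all genes gave 6.06% and 19.9%. Akap5, a scaffold that anchors kinases and phosphatases at L-type channels and AMPA receptors, stood at 0.994, 0.872 and 0.934 FPKM in vector and 2.95, 2.15 and 2.14 FPKM in S37A. The groups lay far apart, with a 2.59-fold rise (log2 difference 0.81, SE 0.09, limma adjusted p = 0.00435). Cav1, the caveolar coat protein, rose from 186 ± 5.38 to 237 ± 14.8 FPKM (SD, n = 3, limma adjusted p = 0.0073). Rrad, a small GTPase that lowers L-type calcium current, fell from 2.79, 2.94 and 2.51 FPKM over the vector libraries to 1.55 to 2.10 FPKM in S37A (log2 difference -0.38, limma adjusted p = 0.0214), a call lost in some alternatives (adjusted p up to 0.0617). Kctd12 rose from 4.87 ± 0.535 to 6.80 ± 0.535 FPKM (limma adjusted p = 0.0138) and Nedd4l, a ubiquitin ligase of sodium channels, fell from 4.79 ± 0.223 to 3.79 ± 0.167 FPKM (limma adjusted p = 0.0125). These also lost their call in an alternative (adjusted p up to 0.0525 and 0.0529).

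In calcium handling 4 of 27 tested genes rose and 1 fell, beside the same 6.06% and 19.9%. Both called pumps of the plasma membrane, which push calcium out of the cell, rose: Atp2b1 from 8.73 ± 0.566 to 11.1 ± 0.173 FPKM and Atp2b4 from 2.92 ± 0.295 to 3.78 ± 0.0951 FPKM (limma adjusted p = 0.00926 and 0.0187). Calm2, a calmodulin gene, rose from 206 ± 7.03 to 235 ± 11.8 FPKM (limma adjusted p = 0.0265), and the junction protein gene Jph1 from 1.47 ± 0.139 to 2.01 ± 0.236 FPKM (limma adjusted p = 0.0306). Orai2, a pore of store-operated calcium entry, fell from 5.57 ± 0.0648 to 4.89 ± 0.0841 FPKM (limma adjusted p = 0.0271), with an adjusted p of up to 0.21 over the alternatives. Calls of the genes that rose were also lost in some alternatives, with an adjusted p of up to 0.0667 for Atp2b4, 0.0921 for Calm2 and 0.0887 for Jph1, but not for Atp2b1.

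Among 21 tested pumps and other channels 2 rose and 2 fell, together 19.0% against 26.0% of all genes. Trpc6, a receptor-operated cation channel that lets calcium into smooth muscle, stood at 0.658, 0.672 and 0.517 FPKM in vector and 1.78, 1.52 and 1.34 FPKM in S37A. It rose 2.51-fold with no overlap (log2 difference 0.65, limma adjusted p = 0.00445), a wider ratio than those of the 5 channel genes that rose. Trpc1, a channel of the same family, went the other way, from 1.97 ± 0.0343 to 1.65 ± 0.0574 FPKM (limma adjusted p = 0.0398), with an adjusted p of up to 0.21 over the alternatives. Fxyd6, a regulator of the sodium pump, rose from 28.4 ± 2.05 to 45.0 ± 2.87 FPKM (limma adjusted p = 0.00291), and Slc12a2, the sodium-potassium-chloride cotransporter, fell from 3.33 ± 0.243 to 2.68 ± 0.121 FPKM (limma adjusted p = 0.0254, up to 0.0959 over the alternatives). Akap5, Cav1, Atp2b1, Trpc6 and Fxyd6 were called in every alternative that tested them.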

How the data were processed

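RNA of 3 vector and 3 S37A libraries was copied with a SMART-Seq v4 kit, primed at random and at poly(A), and read on an Illumina HiSeq, per the labels' protocols. The submitters' processing notes name Cufflinks, TopHat, bcl2fastq 1.8.3 and the build mm10; versions of TopHat and Cufflinks are not given in the sources used here. The authors deposited, per transcript model, the FPKM with its confidence bounds and a coverage signal, which was a constant multiple of the FPKM in each library. Counts were not used here. Depth and fragments were inferred from the interval widths, are approximate and cover counting error only.

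FPKM of 34535 models were summed to 24346 symbols, and 5 genes with a status other than OK were dropped. On log2(FPKM + 1), limma 3.58.1 in R 4.3.3 tested the 12022 genes whose mean reached 0.5 FPKM, without a block and with a trend of variance on level; p-values were adjusted over all of them (Benjamini-Hochberg, threshold 0.05). A difference is S37A minus vector on this scale, which understates low genes; ratios are of mean FPKM. Groups and replicate numbers are from the titles. GENCODE M21 (mm10) gave the gene positions.

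The channel genes and all lists were chosen with earlier results of these data known. Named are called channel genes, the most abundant tested gene of each family, other channel genes of at least 10 FPKM, up to 5 called genes of each related list by p, and Ctnnb1. Of the tested channel genes, 25 are shown singly, and a gene that meets these criteria is not reported here. All other genes named were chosen after their values were seen. Other scalings, filters, pseudocount, variance models, the replicate block, genes with 1 model, and leaving out each library were tried. On simulated data with 200 of 12022 genes changed, the S37A against vector comparison recovered 21.5% at a log2 change of 0.25, 85.0% at 0.5 and 99.5% at 1, with 2, 5 and 8 false calls, and it made 0 calls with no change. The real comparison called 26.0% of the genes, so its threshold on p was looser and these recoveries do not carry over to it. Noise was drawn separately for each gene, so shifts shared within a library were not simulated.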

Additional observations from a re-analysis of the deposited data

How the results depend on the processing

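Of 5 channel genes higher and 4 lower, a minimum of 1 FPKM gave 3 higher, and genes with a single transcript model gave 2 higher and 2 lower, in both cases among fewer genes tested. With no filter on low values 10 were lower, among more genes tested. Over all genes, the 1 FPKM minimum gave 695 higher of 11078, and single-model genes 492 higher and 1634 lower of 8424. No filter gave 1718 lower of 19606. Leaving out 1 library gave 2 to 3 higher and 2 to 3 lower, the latter at 2 without vector replicate 2, vector replicate 3 or S37A replicate 3 and 3 otherwise. Of the 9 related genes higher and 6 lower, median-ratio scaling gave 16 and 2, quantile normalization 14 and 2, and sample weights 16 and 10. Without 1 library 5 to 9 related genes were higher and 0 to 6 lower, the lowest without S37A replicate 3. Over all genes, 729 were higher and 2393 lower in the main test, and 1238 and 3655 with sample weights. Leaving out 1 library gave 298 to 747 higher and 606 to 2401 lower over all genes, again lowest without S37A replicate 3. The log2 difference of Ctnnb1 was 0.33 without S37A replicate 2 and 0.32 without S37A replicate 3, no longer called, and 0.28 to 0.40 over all single libraries left out. It has more than 1 model and so no value among genes with a single model. The cause of these shifts was not tested. Cacng7 and Kcnj4 stayed called in all 16 alternatives and Cacng8 in the 15 that tested it. Kcnn3 stayed called in 12, but was under the filter, and so not tested, with a minimum of 1 FPKM and without vector replicate 1, 2 or 3. No called channel gene changed direction. Cacna2d1, Kcne4 and Scn7a, which were not called, changed sign under median-ratio scaling and quantile normalization.

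No pairing by replicate number was seen: deviations of libraries with the same number correlated at -0.12 to 0.1, and 2 of 6 libraries correlated best with their own number. With 3 libraries a group this cannot show whether they are paired, and the labels do not say. With the replicate block 2 channel genes were higher and 2 lower, and of the related genes 6 were higher and 2 lower. All genes then gave 442 higher and 1193 lower, against 729 and 2393 without the block. In simulated data for the 12022 genes tested, with only 200 changed, 21.5% of genes changed by 0.25 were recovered. Genes under 0.5 FPKM were not simulated.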

Other observations

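Lrrc55, which encodes a gamma subunit of the BK channel and lies outside the name pattern, stood at 0.182, 0.146 and 0.0995 FPKM in vector and 0.581, 0.792 and 0.661 FPKM in S37A. The groups did not overlap, but its mean was below the level for testing, and it was singled out after its values were seen. The BK pore gene Kcnma1 stood at 0.215, 0.228 and 0.188 FPKM in vector and 0.129, 0.181 and 0.220 FPKM in S37A. Kcnq1 was listed at 0 in every library, while Kcnq1ot1, the long noncoding RNA transcribed from the opposite strand of the same locus, stood at 0.0789, 0.0891 and 0.0827 FPKM in vector and 0.0644, 0.0621 and 0.0611 FPKM in S37A. As the library kit does not mark the strand, reads of the pair cannot be told apart where the genes overlap.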
